A study of Mus musculus with 64 samples.

Results

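The 10 genes described here are ATF4 and genes that it is known to switch on in the integrated stress response: Atf4, Atf5, Ddit3, Trib3, Asns, Gdf15, Mthfd2, Psat1, Chac1 and Sesn2. They were listed by name, with earlier results of these data known, and all 10 were among the 16913 genes of the heart count table. The question was how their mRNA levels stood in a mouse model of hypertrophic cardiomyopathy, an inherited thickening of heart muscle, and after interval training. In the integrated stress response, kinases that sense misfolded proteins, missing amino acids, haem shortage, double-stranded RNA or mitochondrial trouble phosphorylate the translation factor eIF2. Most protein synthesis then slows while the ATF4 protein is made more efficiently from existing mRNA, so that ATF4 activity can change without its mRNA. ATF4 pairs with other basic leucine zipper proteins and activates genes of amino acid synthesis, folate metabolism, redox control and feedback, and in heart muscle with mitochondrial defects this programme is a well-known response, with GDF15 as a secreted product.

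RNA was sequenced from 64 hearts of C57BL/6J mice, 1 library per heart, in 8 groups defined by genotype, training and sex. TG mice carried the cTnT-delta160E transgene, a mutant of cardiac troponin T (gene Tnnt2), and nTG mice did not. The promoter that drives the transgene, the number of founder lines, the animals' ages and the part of the heart that was taken are not given in the sources used here. HIIT mice ran on a treadmill for 6 weeks, 3 sessions a week of 31 minutes each, with 4 intervals at 85% and 4 at 50% of their group's mean speed in a graded exercise test, and sedentary mice did not run. The males were 7 sedentary nTG, 8 HIIT nTG, 9 sedentary TG and 8 HIIT TG mice. The females were 8 sedentary nTG, 10 HIIT nTG, 8 sedentary TG and 6 HIIT TG mice. The labels number the animals as biological replicates, so the spread reported is that between animals.

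The labels of the gene count columns could not be used as they stood. Read by their own names, 32 of the 64 columns went against the labelled sex and 30 against the labelled genotype in Tnnt2. Each column of a second table, of long non-coding RNA, was therefore matched to the gene column that correlated best with it over 389 transcripts present in both tables, none of which was one of the 10 genes. The match was mutual for 64 of 64 columns, with r between 0.60 and 0.86 against at most 0.40 for the next best, and after it no library went against its sex or genotype. In CPM, the usual unit of counts scaled to library size, Tnnt2 then read 2665 to 3428 in nTG hearts and 6903 to 12001 in TG hearts. These Tnnt2 values were scaled by library totals alone. The CPM values of the 10 genes and of the cell type markers were also scaled with the trimmed mean of M values. No gene can check the training label. Totals were 34574813 to 67068562 counts per library, and the cardiomyocyte markers summed to 49760 CPM or more in every heart, while atrial markers ranged from 1.36 to 238.5 CPM. Every value below uses the matched labels, and with the columns read by name 0 of the 10 genes passed in any of the 14 comparisons.

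Promoter sequence is shown for the genes that passed together in sedentary males and for those that hold the letters of the C/EBP-ATF response element, the site to which ATF4 is known to bind with a C/EBP partner. The letters searched were TGATGNAA on both strands, from 250 bases before to 50 after each RefSeq transcription start, and they were present in 1304 of 32851 mouse promoters (3.97%). Counted by gene, a match in at least 1 listed promoter was held by 1219 of 27025 genes (4.51%), by 3 of the 10 genes and by 14 of 73 genes of the related lists below. These 73 are not all the genes of those lists. The 10 genes have 13 listed promoters, 3 of them with a match. The sequences are from RefSeq on GRCm38.p6, 5′ to 3′ on the gene's own strand, with the match in capitals. The first 3 give the 250 bases before the start of Asns (chr6:7693210-7693459, minus strand), Mthfd2 (chr6:83317605-83317854, minus strand) and Psat1 (chr19:15925060-15925309, minus strand), the last of these for 1 of its 2 listed starts. The others give 30 bases around the matches of Chac1 (chr2:119351049-119351056, plus strand) and Trib3 (chr2:152344039-152344046, minus strand).
Asns: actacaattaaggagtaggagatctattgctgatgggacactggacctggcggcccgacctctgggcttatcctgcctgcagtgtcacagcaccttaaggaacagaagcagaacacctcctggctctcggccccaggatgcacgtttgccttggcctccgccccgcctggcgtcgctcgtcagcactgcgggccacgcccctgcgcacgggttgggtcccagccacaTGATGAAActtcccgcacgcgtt
Mthfd2: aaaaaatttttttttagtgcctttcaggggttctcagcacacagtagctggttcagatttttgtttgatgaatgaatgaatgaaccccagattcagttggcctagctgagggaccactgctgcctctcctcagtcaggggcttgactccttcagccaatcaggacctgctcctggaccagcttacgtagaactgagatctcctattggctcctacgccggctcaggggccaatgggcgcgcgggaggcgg
Psat1: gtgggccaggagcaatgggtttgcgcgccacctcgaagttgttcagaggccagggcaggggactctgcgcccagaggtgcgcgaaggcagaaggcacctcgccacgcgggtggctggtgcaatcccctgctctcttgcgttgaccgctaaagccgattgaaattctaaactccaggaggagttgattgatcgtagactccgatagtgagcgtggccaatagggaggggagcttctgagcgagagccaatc
Chac1: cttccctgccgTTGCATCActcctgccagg
Trib3: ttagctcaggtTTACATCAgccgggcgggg
The match of Asns lay 23 to 16 bases before the start (chr6:7693225-7693232) and read in the sense direction. That of Chac1 lay 193 to 186 bases before it and read antisense, and that of Trib3 lay 15 to 22 bases after the start, also antisense. Psat1 and Mthfd2 held no match in this window, which says only that these letters are not there. A match is a description of the letters and was not tested as a binding site.

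The 10 genes differed widely in level. Per kilobase of exon, Atf4 (19.9 CPM per kb) and Atf5 (19.7) stood above 91.3% and 91.2% of all measured genes. Ddit3, which encodes CHOP, a transcription factor of prolonged stress, followed at 4.27 CPM per kb, and Sesn2, a stress-induced brake on mTORC1 signalling, at 1.87. The remaining genes were Gdf15 (1.58), Chac1 (1.52), Trib3 (1.35), Asns (0.81), Mthfd2 (0.69) and Psat1 (0.48 CPM per kb). Psat1, the transaminase of serine synthesis, was thus above only 24.7% of genes. Even so, the lowest single value among all 10 genes was 41 reads, in Chac1, and each gene averaged more than 50. The counting strand is not given in the sources used here. In the annotation, 2 of the genes overlap others on the opposite strand, Atf5 with Nup62 and Il4i1 and Ddit3 with Mars. If strand was not used in counting, reads from the shared stretches could not be told apart.

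**Figure D1:**
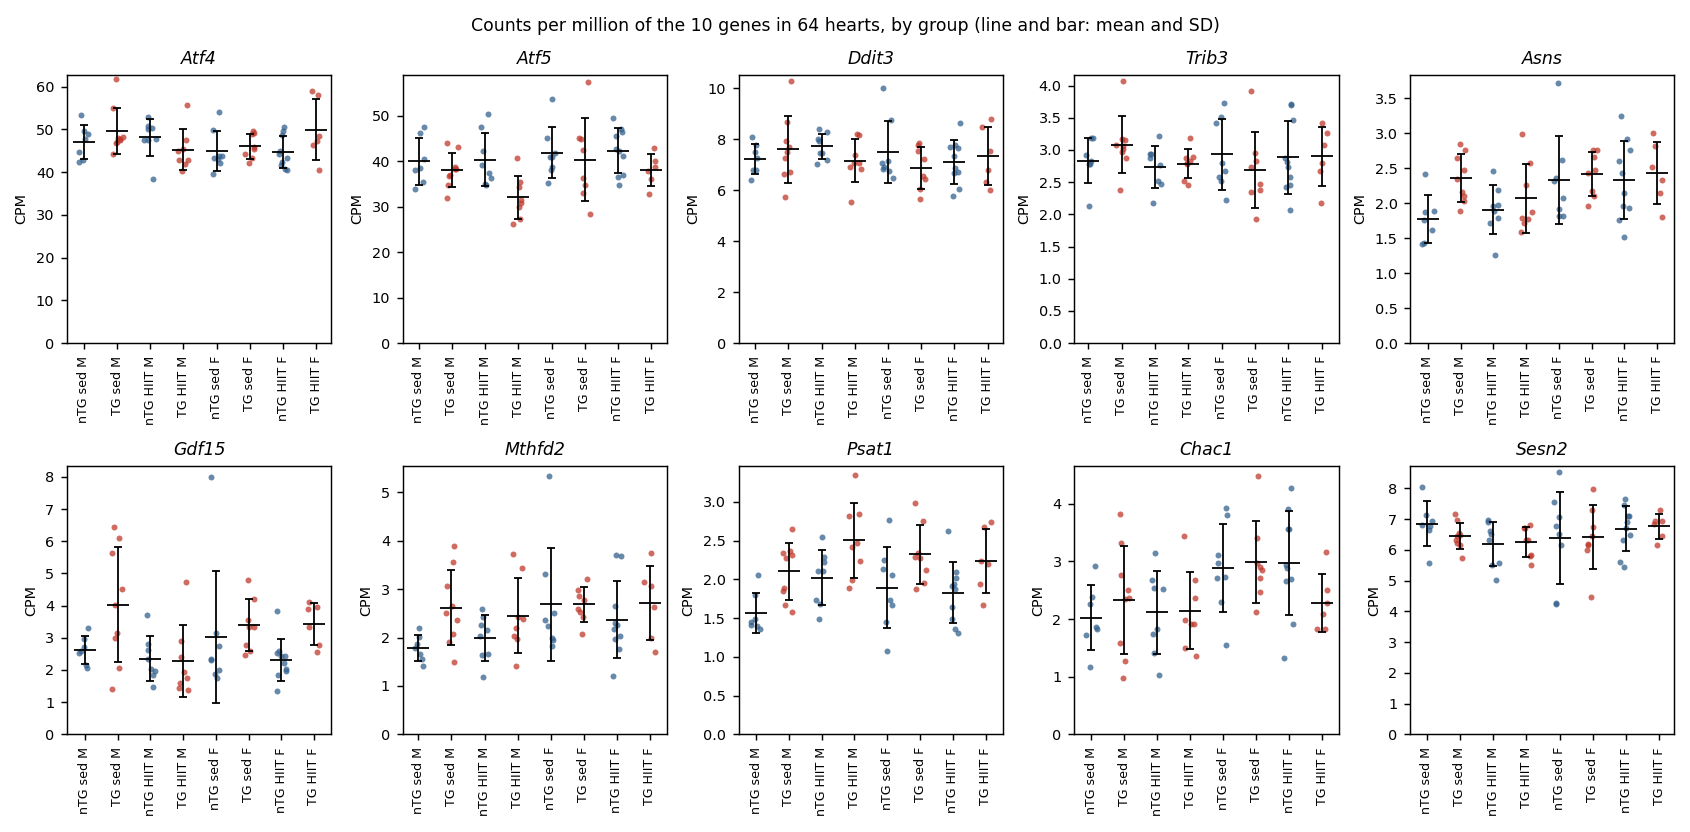
CPM (vertical axis, from 0) of each of the 10 genes in 64 hearts, by group (horizontal axis), nTG in blue and TG in red, with the group mean and SD. The groups overlap for every gene, and 1 sedentary nTG female stands at the top of its group in all 10 panels, at 7.99 CPM for Gdf15.

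Atf4 itself, the transcription factor at the centre of the response, differed little between groups. In males its lowest, median and highest values were 42.3, 47.8 and 53.3 CPM in sedentary nTG and 44.2, 47.8 and 61.7 in sedentary TG hearts, and 38.4, 49.01 and 52.9 in trained nTG and 40.3, 43.9 and 55.8 in trained TG hearts. In females they were 39.6, 43.5 and 54.1 in sedentary nTG and 42.1, 45.6 and 49.7 in sedentary TG hearts, and 40.6, 43.9 and 50.6 in trained nTG and 40.5, 47.9 and 59.01 in trained TG hearts. All 8 groups overlapped, and the highest group mean was 1.12 times the lowest. The genotype difference in log2 fold change (TG minus nTG throughout, edgeR quasi-likelihood test, Benjamini-Hochberg adjusted over all genes) was 0.07 in sedentary males, with a 95% interval of -0.06 to 0.21 and an adjusted p of 0.497. The other combinations gave -0.09 (trained males), 0.04 (sedentary females) and 0.16 (trained females), none past 0.05 after adjustment. In trained females Atf4 passed in 1 of the 64 fits that left out 1 library, the fit without trained TG female 4 (adjusted p = 0.0321).

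In sedentary males, 3 of the 10 genes were higher in TG hearts and none lower, and all 3 encode enzymes of amino acid or folate metabolism. In this comparison 20.6% of all genes passed the same threshold, and 9.39% of all genes passed in the higher direction. Psat1 read 1.37, 1.45 and 2.05 CPM (lowest, median, highest) in the 7 nTG hearts and 1.58, 2.28 and 2.65 in the 9 TG hearts. All 9 TG values were above the nTG median and 5 were above every nTG value, so the groups overlapped in part. Psat1 rose by 0.43 ± 0.15 (SE) on the log2 scale, 1.34-fold, with an adjusted p of 0.0292. Asns, which makes asparagine from aspartate, read 1.42, 1.76 and 2.42 CPM in nTG and 1.89, 2.35 and 2.85 in TG hearts. Of the TG values 9 of 9 were above the nTG median and 4 above every nTG heart, a rise of 0.42 ± 0.15 (adjusted p = 0.0346). Mthfd2, a mitochondrial enzyme of the folate cycle, read 1.42, 1.78 and 2.19 CPM in nTG and 1.502, 2.498 and 3.89 in TG hearts. It was above the nTG median in 8 of 9 TG hearts and above every nTG heart in 6, a rise of 0.56 ± 0.20 (adjusted p = 0.0421).

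Gdf15, the hormone that signals to the brainstem to lower food intake, had the largest fitted difference of the 10 in sedentary males but missed the threshold. It read 2.06, 2.59 and 3.32 CPM in nTG and 1.42, 4.01 and 6.44 in TG hearts. The TG hearts spread on both sides of the nTG range, 5 above all and 1 below all of them, and the difference was 0.63 ± 0.25 with an adjusted p of 0.0662. It passed with limma voom (0.59 ± 0.22, adjusted p = 0.036), which called 4 of the 10 genes here, and in 5 of the 64 fits that left out 1 library (trained TG male 4, sedentary nTG male 5, sedentary TG male 7 or 8, or sedentary nTG female 1). Of all genes, limma voom called 4222 in this comparison, against 3488 with edgeR. The other 6 genes had differences between -0.08 (Sesn2) and 0.21 (Chac1), none past the threshold. The median over the 10 was 0.17 against -0.01 over all genes tested.

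The calls in sedentary males depended on single libraries. Leaving out any single library of the 64 gave between 0 and 4 of the 10 genes, with 0 called without sedentary nTG male 1, 2 or 4 and 1 called without sedentary nTG male 3 or sedentary TG male 1, 2, 3 or 6. Without the TG library highest in blood genes in each of 3 groups (sedentary male 5, sedentary female 2 and trained female 3), Asns alone passed. Psat1 was then at 0.42 ± 0.15 (adjusted p = 0.0521), against 0.43 with all libraries, and Mthfd2 at 0.50 ± 0.21 (adjusted p = 0.0944), against 0.56. The blood markers of these 3 TG libraries summed to 4603, 1174 and 610.1 CPM, while nTG hearts of up to 1112 CPM were kept. Only TG hearts were left out, so this fit cannot tell blood content from the smaller number of TG hearts.

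**Figure D2:**
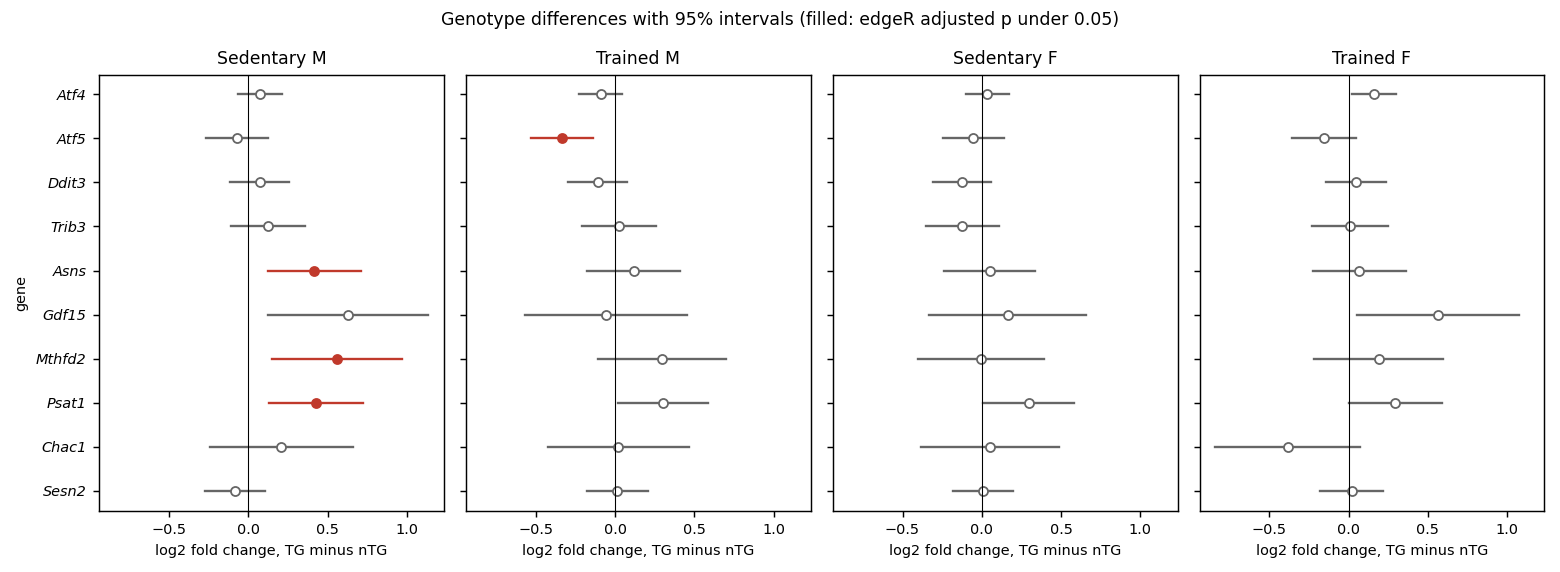
Genotype differences (horizontal axis, log2 fold change, TG minus nTG) of the 10 genes (vertical axis) in each combination of training and sex, with 95% intervals from edgeR; filled points passed an adjusted p of 0.05. Psat1 lies to the right of 0 in all 4 panels, from 0.29 to 0.43, while Atf4 lies between -0.09 and 0.16.

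Trained males showed another of the genes past the threshold, where 14% of all genes passed and 8.31% passed in the lower direction. Atf5, a transcription factor related to ATF4 and active in the mitochondrial stress response, read 34.7, 38.4 and 50.3 CPM in trained nTG males and 26.3, 31.2 and 40.7 in trained TG males. It was below the nTG median in 7 of 8 TG hearts and below every nTG heart in 6, and fell by 0.33 ± 0.10 on the log2 scale (adjusted p = 0.0142). No single library left out removed this call. In the other groups Atf5 read 33.9, 38.5 and 47.6 CPM (sedentary nTG males), 31.9, 38.3 and 44.04 (sedentary TG males), 35.2, 41.04 and 53.6 (sedentary nTG females), 28.4, 39.4 and 57.5 (sedentary TG females), 34.8, 42.5 and 49.4 (trained nTG females) and 32.8, 38.2 and 42.9 (trained TG females). These 6 groups overlapped one another, and trained TG males had the lowest median of the 8.

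In females, none of the 10 genes passed the genotype test by edgeR, sedentary or trained, where 4.37% and 14.8% of all genes did. At an unadjusted p under 0.05, Psat1 was higher in sedentary TG females (1 of the 10, against 16.4% of all genes in either direction), and Atf4, Gdf15 and Psat1 were higher in trained TG females (3 of the 10, against 28.8%). DESeq2 called 0 and 0, and limma voom with sample weights 0 and 1, the latter Gdf15 at 0.65 with an adjusted p of 0.0214. Of all genes, limma voom called 1269 (sedentary) and 3586 (trained), against 739 and 2503 with edgeR. Gdf15 read 1.35, 2.33 and 3.83 CPM in trained nTG females and 2.57, 3.60 and 4.12 in trained TG females. All 6 TG values were above the nTG median and 3 above every nTG value, and the edgeR difference was 0.57 ± 0.25 (adjusted p = 0.125). In sedentary females Gdf15 read 1.74, 2.34 and 7.99 CPM in nTG and 2.46, 3.34 and 4.79 in TG hearts. There, 8 of 8 TG values were above the nTG median, but 1 nTG heart at 7.99 CPM was above them all, and the difference was 0.16 ± 0.25 (adjusted p = 0.824).

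That heart, sedentary nTG female 1, was the highest of its 8 for all 10 genes. Its level was 54.1 CPM for Atf4, 53.6 for Atf5, 10.0 for Ddit3, 3.73 for Trib3, 3.72 for Asns, 5.34 for Mthfd2, 2.76 for Psat1, 3.92 for Chac1 and 8.51 for Sesn2. Its macrophage markers summed to 198.5 CPM, the highest of the group, and its fibroblast markers to 550.7 CPM, within the group's range of 467.7 to 750.4. Without this heart and trained TG male 4, the next highest over the 10 genes, the genotype difference of Gdf15 in sedentary females was 0.55 ± 0.21 (adjusted p = 0.125) and that of Mthfd2 0.22 ± 0.19 (adjusted p = 0.614), against 0.00 ± 0.20 (adjusted p = 0.996) for Mthfd2 with all hearts. This comparison still called 0 of the 10 genes, and the same omission called 4 in sedentary males and 1, Gdf15, in trained females.

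Averaged over the 4 combinations of sex and training, 4 of the 10 genes passed, 3 higher and 1 lower in TG hearts. This share is close to the background, since 39% of all genes passed, 18.5% higher and 20.5% lower, and the median over the 10 was 0.03 against 0.01 over all genes. Psat1 was 0.33 ± 0.07 higher (1.26-fold, adjusted p = 0.000165), and the difference was positive in each combination, at 0.43 and 0.30 in males (sedentary, then trained) and 0.29 and 0.29 in females. Psat1 read 1.49, 2.11 and 2.55 CPM in trained nTG and 1.89, 2.44 and 3.35 in trained TG males. In females it read 1.08, 1.90 and 2.76 in sedentary nTG and 1.87, 2.29 and 2.99 in sedentary TG hearts, and 1.31, 1.89 and 2.63 in trained nTG and 1.66, 2.22 and 2.74 in trained TG hearts. TG hearts above the median of their nTG group numbered 9 of 9, 6 of 8, 7 of 8 and 5 of 6 in the same order. Gdf15 was 0.33 ± 0.13 higher (adjusted p = 0.0344), Mthfd2 0.26 ± 0.10 higher (adjusted p = 0.0334) and Atf5 0.15 ± 0.05 lower (adjusted p = 0.0104). By combination, Gdf15 differed by 0.63 and -0.06 in males (sedentary, then trained) and 0.16 and 0.57 in females, none past the threshold. Mthfd2 differed by 0.56 and 0.30 in males and 0.00 and 0.19 in females, and Atf5 by -0.07 and -0.33 in males and -0.05 and -0.15 in females. In trained males Gdf15 read 1.46, 2.18 and 3.72 CPM in nTG and 1.39, 1.84 and 4.73 in TG hearts, with a difference of -0.06 ± 0.25 (adjusted p = 0.918). Asns, at 0.16 ± 0.07 over the mean, had an adjusted p of 0.0681, and passed with limma voom (0.21, adjusted p = 0.0115), among genes with a mean of at least 50 counts (0.18, adjusted p = 0.0424) and without the 2 hearts named above (0.18, adjusted p = 0.0316). It also passed in 7 of the 64 fits that left out 1 library. Of all genes, limma voom called 7211 over the mean, against 6603 with edgeR. No single library removed the call of Psat1 or Atf5. Gdf15 lost its call without trained TG male 4 or sedentary TG female 4, and Mthfd2 lost it without trained TG male 6 or trained TG female 2. Without the 3 TG libraries left out for their blood genes, Gdf15 was at 0.32 ± 0.13 (adjusted p = 0.0504).

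Markers of other cell types also differed between the genotypes, in combinations with and without calls among the 10 genes. In sedentary males all 5 of 5 macrophage markers and 5 of 5 fibroblast markers were higher in TG hearts, and 5 of 7 cardiomyocyte markers lower. The macrophage markers summed to 113.9 to 154.6 CPM in sedentary nTG males and 149.3 to 250.6 in sedentary TG males, and the fibroblast markers to 421.9 to 595.8 and 490.0 to 792.3. In trained males, where Atf5 was lower, 3 of 5 macrophage and 3 of 5 fibroblast markers were higher, 2 of 7 cardiomyocyte markers lower and all 5 of 5 blood markers lower. The blood markers summed to 572.7 to 1112 CPM in trained nTG and 259.6 to 554.2 CPM in trained TG males. In trained females, where none of the 10 genes passed, 4 of 5 macrophage and 3 of 5 fibroblast markers were higher and 4 of 7 cardiomyocyte markers lower. Over the mean of the 4 combinations all 5 of 5 macrophage and 5 of 5 fibroblast markers were higher, and 6 of 7 cardiomyocyte and 3 of 5 blood markers lower. In sedentary females, where none of the 10 passed either, 0 of 5 macrophage markers and 1 of 5 fibroblast markers were higher and 1 of 7 cardiomyocyte markers lower. In bulk tissue, fewer cells of a type and less RNA per cell cannot be told apart. Within groups, over the 64 hearts, Gdf15 went with the macrophage sum (r = 0.58, rho = 0.46, permutation p = 1e-05 for r, the smallest that 100000 resamples can give, and 0.00015 for rho, adjusted p = 8e-05 and 0.0012 over 8 relations), with r = 0.46 without the 2 hearts farthest from the median sum. For Asns and Mthfd2 the same r was 0.43 and 0.39, with adjusted permutation p-values of 0.00109 and 0.00234 for r and 0.00813 and 0.00998 for rho. For Psat1 it was 0.26, with an adjusted permutation p of 0.038 for r and 0.0606 for rho. Without the same 2 hearts these r values were 0.37, 0.30 and 0.24. With the fibroblast sum, r was 0.46 for Gdf15, 0.40 for Asns, 0.33 for Psat1 and 0.28 for Mthfd2, with adjusted permutation p-values of 0.00096, 0.00226, 0.0113 and 0.0314 for r and of 0.0106, 0.00813, 0.0172 and 0.0606 for rho. Without the 2 hearts farthest in the fibroblast sum they were 0.37, 0.30, 0.30 and 0.24. These relations were computed for Gdf15, Asns, Mthfd2 and Psat1 only, and not for the rest of the 10 genes. Whether genes at large follow these sums as closely was not tested. The part of these cells in the genotype differences was not tested.

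Training was compared within each genotype and sex. In TG males, 1 of the 10 genes passed, Gdf15, which was lower, where 18% of all genes passed and 7.6% passed in the lower direction. Gdf15 read 1.42, 4.01 and 6.44 CPM in sedentary TG males and 1.39, 1.84 and 4.73 in trained TG males. Of the 8 trained hearts 7 were below the sedentary median, and the exception, trained male 4, was at 4.73 CPM while the others ended at 2.90. Gdf15 fell by 0.84 ± 0.25 on the log2 scale, to 0.56 of the sedentary level (adjusted p = 0.0135), and no single library left out removed the call. The sedentary TG males also serve in the genotype comparison above, so their high Gdf15 values enter both differences.

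Atf5 and Atf4 had fitted differences of -0.25 ± 0.09 (adjusted p = 0.0556) and -0.13 ± 0.07 (adjusted p = 0.157) with training in TG males. The call of Atf5 moved with the processing: DESeq2 gave an adjusted p of 0.0328, limma voom 0.0119 and the fit with the replicate number as a block 0.0427, and it passed in 10 of the 64 fits that left out 1 library. Of all genes, DESeq2 called 3403 and limma voom 4541 in this comparison, against 3036 with edgeR. Without trained TG male 4, 3 genes passed, Gdf15, Atf5 and Atf4. That heart had the lowest cardiomyocyte sum of its group (49760 CPM) and the highest macrophage and fibroblast sums (251.9 and 963.5 CPM). The other 7 genes had differences from -0.19 (Asns) to 0.25 (Psat1), none past the threshold. Over the same comparison 3 of 5 macrophage markers, 2 of 5 fibroblast markers, 2 of 5 endothelial markers and 5 of 5 blood markers were lower in trained hearts, and 2 of 7 cardiomyocyte markers higher. The blood markers summed to 290.4 to 4603 CPM in sedentary and 259.6 to 554.2 CPM in trained TG males. Their part in the Gdf15 difference was not tested. Without the 3 TG libraries left out for their blood genes, of which only sedentary male 5 is in this comparison, Gdf15 was at -0.85 ± 0.26 (adjusted p = 0.0224).

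In the other training comparisons edgeR called none of the 10 genes. Over all genes, 0% passed in nTG males, 0.148% in nTG females and 0% in TG females. At an unadjusted p under 0.05, 1 of the 10 was higher in trained nTG males, Psat1 (0.37 ± 0.15, adjusted p = 0.718), and 0 in the females of either genotype. The share of all genes at that level was 5.91% in nTG males, 14.2% in nTG females and 3.58% in TG females. DESeq2 and limma voom called 0 in all 3. Gdf15 read 1.46, 2.18 and 3.72 CPM in trained nTG males, and its difference from training was -0.15 (95% interval -0.68 to 0.37) in nTG males, -0.38 (-0.85 to 0.10) in nTG females and 0.02 (-0.51 to 0.56) in TG females. The intervals are wide and do not show that training left Gdf15 as it was.

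Differences between the effects were tested directly. The interaction of genotype with training called 0 of the 10 genes in males and 0 in females by edgeR, DESeq2 and limma voom. Of all genes, edgeR called 0% in either sex, DESeq2 called 13 genes in males and 0 in females, and limma voom 300 and 0. At an unadjusted p under 0.05 the interaction held 0 of the 10 in either sex by edgeR, against 14.8% of all genes in males and 6.46% in females. For Gdf15 in males it was -0.69 ± 0.36 (adjusted p = 0.36). The genotype effect in sedentary females minus that in sedentary males also called 0 of 10 by all 3 tools and 0 unadjusted (8.7% of all genes unadjusted), and stood at -0.56 ± 0.28 for Mthfd2 (adjusted p = 0.578) and -0.36 ± 0.20 for Asns (adjusted p = 0.614). The training effect in TG females minus that in TG males called 0 by edgeR and DESeq2 and 1 by limma voom, with 0% of all genes called by edgeR. At an unadjusted p under 0.05, where 18.1% of all genes stood, it held 2 genes, Gdf15 (0.87 ± 0.36, adjusted p = 0.186) and Atf4 (0.25 ± 0.10, adjusted p = 0.165). The gene that limma voom called was Gdf15 (1.06 ± 0.30, adjusted p = 0.0302). Of all genes, limma voom called 927 here and DESeq2 223. Without sedentary nTG female 1 and trained TG male 4, an alternative chosen after seeing the data, edgeR called both Gdf15 (1.12 ± 0.30, adjusted p = 0.0363) and Atf4 (0.31 ± 0.09, adjusted p = 0.0497).

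Between sedentary nTG females and males, 0 of the 10 genes passed by edgeR, DESeq2 or limma voom, against 2.22% of all genes. At an unadjusted p under 0.05 (15.2% of all genes), 3 were higher in females: Mthfd2 (0.59 ± 0.21, adjusted p = 0.119), Asns (0.40 ± 0.15, adjusted p = 0.158) and Chac1 (0.52 ± 0.23, adjusted p = 0.249). Mthfd2 read 1.82, 2.303 and 5.34 CPM in the females, the highest again in sedentary nTG female 1, and 1.42, 1.78 and 2.19 in the males. In the remaining groups Mthfd2 read 1.18 to 2.59 CPM in trained nTG and 1.42 to 3.72 in trained TG males, 1.21 to 3.70 in trained nTG and 1.69 to 3.75 in trained TG females, and 2.07 to 3.21 in sedentary TG females. Asns ranged from 1.26 to 2.46 CPM in trained nTG and from 1.59 to 2.99 in trained TG males. In females Asns read 1.82 to 3.72 (sedentary nTG), 1.96 to 2.77 (sedentary TG), 1.51 to 3.24 (trained nTG) and 1.80 to 3.01 (trained TG). Every pair of these groups overlapped.

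Group means lay closest together for Atf4 and for 3 feedback and damage-control genes. Ddit3 had group means of 6.88 to 7.72 CPM, Trib3, a pseudokinase that restrains ATF4 activity, 2.69 to 3.08, and Sesn2 6.18 to 6.84, so that the highest mean was 1.12, 1.15 and 1.11 times the lowest. Chac1, which breaks down glutathione, had means of 2.02 to 2.99 CPM, a ratio of 1.48, with a median coefficient of variation within groups of 29%. None of these 4 genes passed in any of the 14 comparisons. By the same ratio of group means, Gdf15 stood at 1.78, Psat1 at 1.60, Mthfd2 at 1.52, Asns at 1.38 and Atf5 at 1.32. With the 8 groups of each gene put in order of their means, 1 of the 70 neighbouring pairs differed by more than the larger of the 2 SDs, that of Atf5 in trained TG females and trained TG males. No gene of the 10 had groups that did not overlap in any of the 9 comparisons of 2 groups, while some of all genes did. For genotype that share was 2.1% (sedentary) and 1.82% (trained) in males and 0.52% and 2.57% in females. For training it was 0.106% (nTG) and 1.09% (TG) in males and 0.0237% and 0.0473% in females, and between the sexes 0.514%.

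Within groups, some of the genes varied together from heart to heart. After each group was centred on its mean log2 CPM, 12 of the 45 pairs were positively and 1 negatively correlated over the 64 hearts at an adjusted permutation p under 0.05 for both Pearson's r and Spearman's rho. The closest were Gdf15 with Mthfd2 (r = 0.66, rho = 0.61), Asns with Mthfd2 (0.64 and 0.57), Atf5 with Gdf15 (0.61 and 0.67) and Asns with Gdf15 (0.57 and 0.52), each with a permutation p of 1e-05 for r. The adjusted p for r was 9e-05 in each, and r was 0.57, 0.61, 0.61 and 0.55 without the 2 hearts farthest from the median of the first gene of the pair. Atf4 correlated with Gdf15 (r = 0.51, rho = 0.44, adjusted permutation p = 9e-05 and 0.0027) and with Ddit3 (0.46 and 0.41, adjusted p = 0.00109 and 0.00472), and inversely with Chac1 (r = -0.33, rho = -0.36, adjusted permutation p = 0.0196 and 0.0166). Without the 2 hearts farthest in Atf4 these r values were 0.41, 0.42 and -0.29. Trib3 paired with Chac1 (r = 0.41, rho = 0.40, adjusted permutation p = 0.0036 and 0.0051). Psat1 went with Asns (r = 0.41, rho = 0.39), Gdf15 (0.39 and 0.34) and Mthfd2 (0.37 and 0.33), with adjusted permutation p-values of 0.00355, 0.00596 and 0.00976 for r and 0.00738, 0.0226 and 0.0289 for rho. Its relation to Atf4 was 0.11 and 0.07 (adjusted permutation p = 0.498 and 0.674). Against the mean of the other 9 genes, r was highest for Gdf15 (0.72), Asns (0.66) and Mthfd2 (0.63) and lowest for Chac1 (0.05). The labels name no sequencing batch or date, so values within batches are not given.

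**Figure D3:**
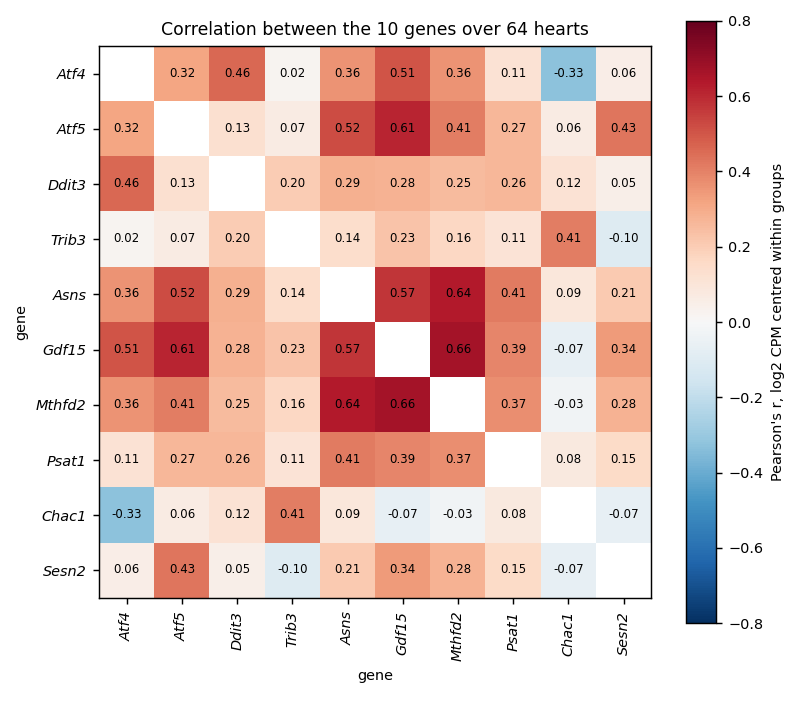
Pearson's r between each pair of the 10 genes over 64 hearts, on log2 CPM centred within groups (colour scale from -0.8 to 0.8). Gdf15 with Mthfd2 is the reddest cell, at 0.66, and Atf4 with Chac1 the bluest at -0.33.

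Among 12162 genes with a mean of at least 50 counts, the 5 that followed the standardised mean of the 10 most closely over the 64 hearts, centred within groups, were Sema3f (r = 0.71, rho = 0.64), Oaf (0.71 and 0.68), Cmtm3 (0.70 and 0.61), Itga9 (0.69 and 0.60) and C1qtnf1 (0.69 and 0.62). The most opposed were Pde3a (r = -0.73, rho = -0.66), Cdkn1b (-0.71 and -0.57) and Nadk2 (-0.68 and -0.63). These genes were picked for this value, so it is a description.

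The wider pathway was described by lists of genes, with TG minus nTG averaged over the 4 combinations and the share of all genes as above (18.5% higher, 20.5% lower). Of the 11 eIF2 kinases, phosphatase subunits and sensors, 2 were higher and 2 lower. Dele1 and Oma1, which relay mitochondrial stress to an eIF2 kinase, were lower by -0.19 ± 0.03 and -0.06 ± 0.03 (adjusted p = 7.42e-09 and 0.0458). Ppp1r15b, a regulatory subunit of the eIF2 phosphatase, and Eif2ak2, the kinase PKR, were 0.06 and 0.11 higher. Among 5 measured partner and feedback transcription factors, 3 were higher and none lower: Nupr1 (0.28 ± 0.08, adjusted p = 0.00395), Jdp2 (0.14) and Cebpb (0.19). Of 9 other genes of serine, folate and proline synthesis, 2 were higher and 3 lower. Phgdh, the first enzyme of the serine pathway in which Psat1 acts second, was 0.38 ± 0.08 higher (adjusted p = 9.34e-05), and Mthfd1l, which acts after Mthfd2 in mitochondria, 0.37 ± 0.12 higher (adjusted p = 0.00991). The serine hydroxymethyltransferases were lower, Shmt1 by -0.33 ± 0.06 and Shmt2 by -0.10 ± 0.03.

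Of 7 amino acid transporters, Slc7a5 (0.25 ± 0.05) and Slc1a5 (0.17 ± 0.05) were higher and Slc7a1, the cationic amino acid carrier, lower (-0.44 ± 0.06). Of 12 cytosolic tRNA synthetases, a family that ATF4 is known to activate, 1 was higher (Nars, 0.12 ± 0.02) and 6 lower, among them Aars (-0.11), Lars (-0.12) and Mars (-0.08). Of 9 other measured ATF4 targets, 0 were higher and 5 lower, among them Herpud1, a factor of protein disposal at the endoplasmic reticulum (-0.30 ± 0.05, adjusted p = 4.07e-07), Ddit4, an inhibitor of mTORC1 (-0.35 ± 0.09, adjusted p = 0.00173), Nars2 (-0.09) and Vldlr (-0.07). Of 16 genes of the ATF6 and XBP1 arms of the endoplasmic reticulum stress response, 2 were higher and 11 lower, among them the chaperone BiP gene Hspa5 (-0.33 ± 0.04, adjusted p = 2.42e-09), Manf (-0.35 ± 0.05), Atf6 (-0.17) and Canx (-0.17), with a list median of -0.16. By combination, 9 of the 16 were lower and 2 higher in sedentary males, 0 and 0 in trained males, 7 lower and 1 higher in sedentary females, and 5 lower and 0 higher in trained females. In these combinations 20.6%, 14%, 4.37% and 14.8% of all genes passed in either direction. Of 9 mitochondrial proteases and chaperones, 0 were higher and 6 lower, among them Afg3l2 (-0.10), Clpp (-0.15), Clpx (-0.15) and Hspa9 (-0.09). By combination, 4 of these 9 were lower in sedentary males, 1 in trained males and 3 in trained females with none higher, and in sedentary females 0 were lower and 1 higher, against the same shares of all genes. Of 9 p53 targets, a pathway that shares Sesn2 and Gdf15 with ATF4, 4 were higher and 1 lower, among them Bax (0.22), Phlda3 (0.17), Zmat3 (0.08) and, lower, Ccng1 (-0.17). Of the receptors for GDF15 and FGF21, Fgfr1 was 0.24 ± 0.04 higher, and Gfral and Klb were not analysed here, nor were Fgf21, Slc7a3, Slc7a11 and Batf3.

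The same lists were read for training in TG males, a comparison that shares the sedentary TG males with the genotype average, and where 10.3% of all genes were higher and 7.6% lower. Of the 16 genes of the ATF6 and XBP1 arms, 5 rose and 0 fell, among them Hspa5 (0.27 ± 0.08, adjusted p = 0.0157) and Canx (0.22 ± 0.06, adjusted p = 0.00555). Of the mitochondrial proteases and chaperones 5 of 9 rose and 0 fell, among them Hspa9 (0.16) and Clpx (0.17), and of the other ATF4 targets 3 of 9 rose and 0 fell, among them Vldlr (0.15). Among the eIF2 kinases and their partners 1 rose and 1 fell, Eif2s1 (0.25 ± 0.07), the phosphorylated subunit of eIF2, and Ppp1r15a (-0.35 ± 0.08), the stress-induced phosphatase subunit, both named after their values were seen. Of the p53 targets 2 of 9 rose and 1 fell, Ccng1 (0.24) among the former and Bax (-0.22) the latter. Of the serine, folate and proline genes 0 rose and 1 of 9 fell, of the tRNA synthetases 1 of 12 rose and 0 fell, and none passed among the 5 partner factors, the 7 transporters and the 2 measured receptors.

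**Figure D4:**
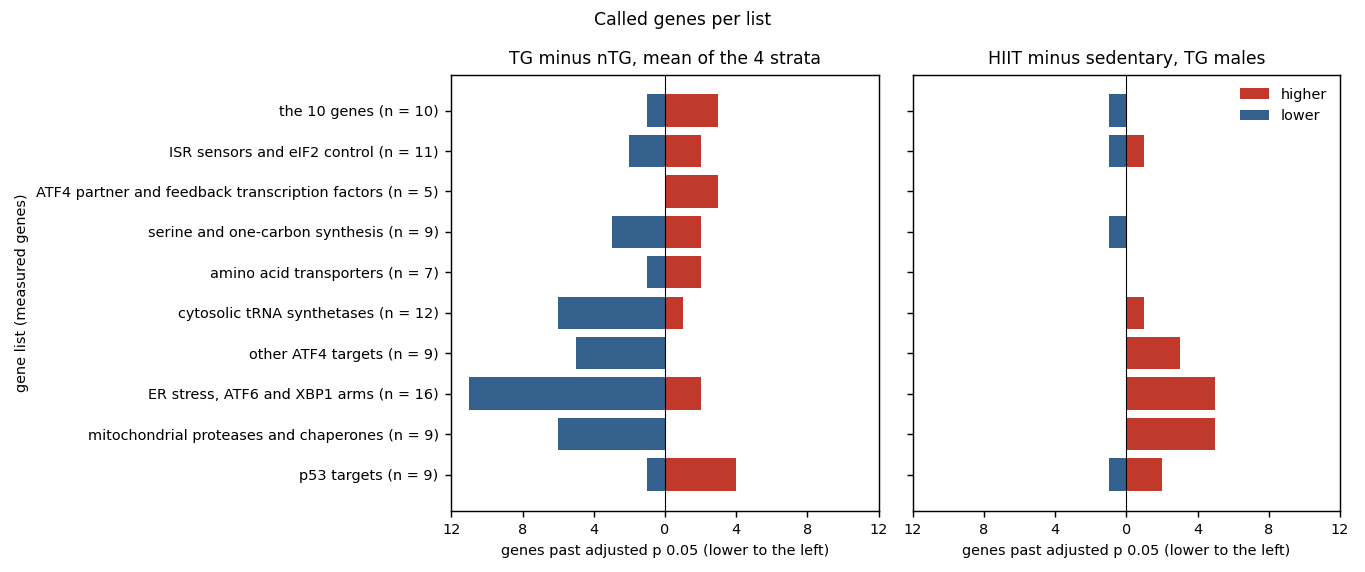
Genes past an adjusted p of 0.05 (horizontal axis, number of genes, lower to the left and higher to the right) in each list (vertical axis, number measured in parentheses), for TG minus nTG averaged over 4 combinations of sex and training (left) and for HIIT minus sedentary in TG males (right). In the left panel 11 of the 16 genes of the ATF6 and XBP1 arms are lower and 2 higher, and of the 10 genes described here 3 are higher and 1 lower, where 18.5% of all genes were higher and 20.5% lower.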

How the data were processed

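Total RNA from hearts was depleted of ribosomal RNA and sequenced, per the labels' protocols. Per the submitters' processing notes, cutadapt 2.3, STAR 2.7.8a and RSEM 1.3.3 were used with GRCm38 (mm10), with FastQC 0.11.8 and MultiQC 1.7. The authors deposited whole-number counts per gene for 16913 genes, of which 16879 matched a symbol, and estimated counts for 3787 long non-coding transcripts, 45 of them with fractional values. Whether the gene counts are rounded RSEM estimates is not given in the sources used here. All 64 columns of both tables were used, and 0 were left out.

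Gene columns were joined to labels through the long non-coding table (Pearson's r of centred log2 CPM, pseudocount 0.5, autosomal transcripts with a mean of at least 20 counts in both tables). Spearman's rho or a minimum mean of 5 or 50 counts gave the same 64 pairs. Depth was 34574813 to 67068562 counts per library, with a median of 48001577.

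Counts were fitted with edgeR 4.0.16 (R 4.3.3), TMM scaling, 8 group means in 1 fit with 56 residual degrees of freedom, and the quasi-likelihood F test for 14 contrasts. P-values were adjusted by Benjamini-Hochberg over all 16913 genes, with a threshold of 0.05. The low-count filter removed no gene. Alternatives were DESeq2 1.42.0, limma 3.58.1 voom with quality weights, median-of-ratios scaling, a mean of at least 50 counts, no mitochondrially encoded genes, 1 sex only, the replicate number as a block, libraries left out and columns read by name. Correlations used two-sided permutation tests with 100000 resamples. The fit and the join were tested on simulated data.

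The 10 genes, the lists and the tests were chosen with earlier results of these data known. By the rule for named genes, Atf4 and any gene past the threshold in at least 2 of the 4 genotype comparisons were given in all groups, and up to 4 genes of each list by smallest p. No gene but Atf4 met it, and it was widened to genes past the threshold at least once after the values were seen.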

Additional observations from a re-analysis of the deposited data

Results flagged for a closer look

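Of 80 sets of values (10 genes in 8 groups), 9 held a heart that stood apart from the rest of its group by Dixon's gap test at the 95% level, where chance gives about 1 in 20, or 4. In the sedentary nTG females, replicate 1 stood apart for Gdf15 (7.99 CPM, the others 1.74 to 3.14), Mthfd2 (5.34, the others 1.82 to 3.31) and Asns (3.71, the others 1.81 to 2.62). In the trained TG males, replicate 4 stood apart for Atf4 (55.8 CPM, the others 40.3 to 47.5) and Gdf15 (4.73, the others 1.39 to 2.90). Single values also stood apart for Gdf15 in trained nTG female 4 (3.83 CPM, the others 1.35 to 2.59), for Atf4 in trained nTG male 3 (38.4, the others 47.4 to 52.9), and for Trib3 in sedentary TG male 1 (4.06, the others 2.38 to 3.17) and sedentary nTG male 3 (2.13, the others 2.79 to 3.18).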

How the results depend on the processing

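Alternatives were run for the 10 genes only, not for the genes of the lists, and no difference of the 10 genes that passed the threshold changed sign under them. With columns read by name, the counts of the 10 genes fell to 0 for genotype in sedentary males, in trained males and over the mean, and to 0 for training in TG males. For training in TG males, 2 genes in place of 1 passed with DESeq2, with limma voom, with a mean of at least 50 counts, without mitochondrially encoded genes, within 1 sex and with the replicate block, and 3 passed without the 2 libraries highest over the 10 genes, an alternative chosen after seeing the data. Without the 3 TG libraries left out for their blood genes, 1 in place of 3 passed for genotype in sedentary males, with Psat1 at 0.42 against 0.43 and Mthfd2 at 0.50 against 0.56. For genotype in trained females 1 passed with limma voom and 1 without the 2 libraries, against 0. For training by sex in TG hearts 1 (Gdf15) and 2 (Gdf15 and Atf4) passed under the same settings, against 0. Over the 64 fits that leave out 1 library, the count ran from 0 to 4 for genotype in sedentary males, 0 to 1 (Atf4) in trained females, 1 throughout in trained males, 3 to 5 over the mean, and 1 to 3 for training in TG males. Of 205 pairs of libraries with the same replicate number in different groups, 51 correlated above 0.1. Their median r was 0.01 and the highest 0.41, against a median of -0.0005 for pairs with other numbers. Medians this close do not show whether some of the hearts were paired. The replicate block changed the one count given here. Median-of-ratios scaling changed no call of the 10 genes. At these depths Psat1, the least read, averaged 99.4 reads a library. With limma voom Gdf15 also passed for genotype in sedentary males, and Asns over the mean. In both comparisons limma voom called more of all genes than edgeR did.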
